A study of Mus musculus with 23 samples.

Results

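The genes described here are those whose mRNA stood at a like level in mouse neutrophils of bone marrow (BM) and peripheral blood (PB) and at a much lower level in neutrophils of the lung. They were chosen by measured values: a mean of at least 5 FPKM (sequenced fragments scaled by gene length and by library size) in both PB and BM, a ratio of PB + 1 to BM + 1 FPKM of 0.5 up to 2, and both PB + 1 and BM + 1 at least 3 times lung + 1 FPKM. Ribosomal protein genes and other families named by their symbols (such as Nduf, Psm, Slc and Hsp) were left out, which removed 5 genes. This left 163 members of the 3708 genes that met the PB and BM parts of the rule, called eligible genes below, and of 21878 genes in the table. The number depends on how libraries are scaled, and 35 genes met the same rule once every library was scaled to the median ratio over genes. The levels in these 9 libraries describe the choice and are not tested.

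The choice rests on WT mice, with 3 libraries each from lung, PB and BM. The members were then followed in a second experiment with neutrophils of WT and Piezo1-cKO mice, with 2 libraries each from lung and PB. Piezo1-cKO mice carry Piezo1 alleles flanked by loxP sites and a Vav1-driven Cre, which is active in blood cells of all lineages and not in neutrophils alone, and WT mice are the controls. Whole lungs formed another set, with 3 libraries after anti-Ly6G treatment (neutrophil-depleted) and 3 after an isotype control. All sorted cells were CD45+CD11b+Ly6G+ from perfused lung, PB or BM, and lung and PB cells, but not BM cells, first went through negative selection. The paper's tissue methods also digest lung with collagenase and DNase, and list no such step for PB or BM. Differences of lung from PB or BM cannot be told apart from this handling. The study counts the replicates of the tissue comparison as mice. For the Piezo1 experiment and the whole lungs, the labels number the replicates without saying whether each is a separate mouse or a pool, so the p values measure the spread between libraries, which may be technical.

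Reads on genes numbered 16502148 to 19330774 per library for the 9 libraries behind the choice and 9621120 to 15034817 for the 8 of the Piezo1 experiment. The summed level of 7 T cell genes was at most 6.53 FPKM in any of these libraries. Erythroid genes, led by haemoglobin genes, summed to 910.3 to 972 FPKM in the 2 cKO PB libraries, 21.0 and 21.1 in WT PB and at most 4.64 in lung libraries of either genotype, and their part in the results on cKO PB was not tested. Listed monocyte genes summed to 609 to 616 FPKM in lung and 304 to 335 in PB of the first experiment. In the Piezo1 experiment they summed to 832 to 943 in lung and 311 to 353 in PB, so the sums were higher in lung. In BM of the first experiment these genes summed to 715 to 857 FPKM. Of the 8 genes listed, 3 were at 0 in WT lung, 2 in cKO lung, 2 in WT PB and 3 in cKO PB. The part of monocyte genes was not tested. Piezo1 itself gave 3 to 10 reads per library in all 8 libraries of its experiment, too few to check the genotype. PB replicate 3 of the tissue comparison stood apart from the other PB libraries, and without it the rule gave 167 members.

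Neutrophils are short-lived cells that leave the marrow with most of their proteins made, and transcription factors of the C/EBP family direct their differentiation. Lung vessels hold a large pool of them in capillaries. In bulk RNA of sorted cells, fewer cells that express a gene and less RNA per cell cannot be told apart.

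Promoters of 4 members are shown because they had the strongest falls in Piezo1-cKO lung by the rule for named genes, in libraries that did not enter the choice. Each run holds 250 bases before and 50 bases after a RefSeq transcription start on GRCm38.p6, and capitals mark matches to any of the 11 short motifs searched on both strands. AI467606 lies at chr7:127090780-127094049, with the window at chr7:127091186-127091485, plus strand. The window of Tnfaip8l2 is chr3:95142305-95142604, minus strand, that of Hhex chr19:37434591-37434890, plus strand and that of Cep19 chr16:32099539-32099838, plus strand.
AI467606: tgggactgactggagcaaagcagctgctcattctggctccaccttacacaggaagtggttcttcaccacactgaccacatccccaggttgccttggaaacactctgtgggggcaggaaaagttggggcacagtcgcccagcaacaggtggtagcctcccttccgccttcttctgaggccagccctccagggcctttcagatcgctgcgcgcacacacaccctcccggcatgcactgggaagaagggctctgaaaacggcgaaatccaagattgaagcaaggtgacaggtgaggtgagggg
Tnfaip8l2: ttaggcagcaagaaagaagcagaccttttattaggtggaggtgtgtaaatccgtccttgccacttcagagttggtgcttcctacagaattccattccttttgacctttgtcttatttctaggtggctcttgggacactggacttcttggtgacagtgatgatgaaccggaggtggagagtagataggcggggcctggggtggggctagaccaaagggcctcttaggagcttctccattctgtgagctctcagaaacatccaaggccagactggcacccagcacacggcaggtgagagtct
Hhex: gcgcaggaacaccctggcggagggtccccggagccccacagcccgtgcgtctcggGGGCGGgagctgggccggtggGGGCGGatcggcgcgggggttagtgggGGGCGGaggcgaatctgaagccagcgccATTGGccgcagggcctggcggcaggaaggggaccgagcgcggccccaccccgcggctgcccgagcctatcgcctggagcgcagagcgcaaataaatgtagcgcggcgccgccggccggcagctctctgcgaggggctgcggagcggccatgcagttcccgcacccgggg
Cep19: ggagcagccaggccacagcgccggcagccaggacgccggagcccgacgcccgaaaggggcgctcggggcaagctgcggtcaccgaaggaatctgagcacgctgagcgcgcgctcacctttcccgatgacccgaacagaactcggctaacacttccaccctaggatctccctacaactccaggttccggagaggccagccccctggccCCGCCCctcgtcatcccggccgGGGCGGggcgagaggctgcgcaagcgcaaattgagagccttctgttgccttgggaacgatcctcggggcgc
The windows of AI467606 and Tnfaip8l2 held no match, and those of Hhex and Cep19 held 3 and 2 copies of GGGCGG, the SP motif, counting both strands. The Hhex window also held 1 copy of CCAAT, the NF-Y motif.

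RefSeq windows were found for 140 of the 163 members, 3039 eligible genes and 27025 genes in all, and a gene counted once if any of its windows held a match. GGGCGG was present in 68.6% of members, 74.2% of eligible genes and 38.2% of all genes. CCAAT was present in 40%, 42.5% and 41.1%. CCGGAAGT (ETS) was found in 8.57% of members against 11.7% of eligible genes, and GAGGAAGT (PU.1) in 6.43% against 4.61%. AAGATGGCG (YY1) was found in 2 members, 1.43%, against 5.002% of eligible genes, and GCGCATGCG (NRF1) in 2.14% against 4.90%. TTNNGCAA (C/EBP) was present in 7.86% against 10.3%, TGANTCA (AP-1) in 5% against 6.05%, CACGTG (E-box) in 10% against 12.1%, TGACGTCA (CRE) in 2.14% against 4.08% and TATAAA in 8.57% against 7.57%. Motifs can overlap each other, and these shares are descriptions with no test.

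The module spanned a wide range of levels. Mean PB levels ran from 5.18 to 597 FPKM with a median of 18.0, mean BM levels from 5.05 to 535 with a median of 20.02, and mean lung levels from 0.515 to 138 with a median of 3.68. A PB mean of at least 50 FPKM was seen for 35 members and one under 10 for 45. For 12 members the lung mean was under 1 FPKM. Every lung library lay below every PB and BM library for 163 of 163 members, which follows from the choice. Among eligible genes, the median ratio of lung + 1 to the smaller of PB + 1 and BM + 1 was 0.718.

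The highest members were Slfn1 and Rsrp1. Slfn1, a Schlafen family gene linked to lymphocyte quiescence, stood at 617, 640.2 and 532 FPKM in the 3 PB libraries, 431, 424 and 422 in BM and 144, 134 and 135 in lung. Rsrp1, which encodes an arginine- and serine-rich protein, stood at 548, 569 and 498 FPKM in PB, 536, 531 and 537 in BM and 131, 132 and 137 in lung. The lung libraries of both genes lay far below the others, and those of PB and BM overlapped for Rsrp1 but not for Slfn1.

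Transcription factors were among the high members. Cebpd, a C/EBP family factor, was at 271, 259.8 and 286 FPKM in PB, 149, 148 and 151 in BM and 35.5, 31.9 and 32.3 in lung, so that PB was above BM in every library. Nfe2, the large subunit of the NF-E2 factor of erythroid cells and megakaryocytes, was at 128, 119 and 156 FPKM in PB, 179, 180.1 and 179 in BM and 41.3, 40.6 and 39.0 in lung, with BM above PB. Cebpa, a regulator of granulocyte commitment, was lower, at 23.7, 21.8 and 23.6 FPKM in PB, 17.9, 17.7 and 17.6 in BM and 2.21, 3.65 and 2.23 in lung. The haematopoietic homeobox factor Hhex went from 39.5, 37.3 and 40.4 FPKM in PB and 62.3, 61.6 and 58.7 in BM to 3.75, 2.93 and 3.42 in lung.

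Surface and signalling members followed. Cd300lb, an activating receptor of myeloid cells, stood at 258, 256 and 257 FPKM in PB, 185, 181 and 183 in BM and 49.7, 52.1 and 49.9 in lung. Rin3, an exchange factor for Rab5 GTPases, stood at 209, 202 and 252 in PB, 169, 176 and 178 in BM and 52.5, 51.8 and 51.1 in lung, and Tmem154, a transmembrane protein, at 157, 156 and 158 in PB, 148, 149 and 149 in BM and 44.0, 44.6 and 41.9 in lung. Twf2, an actin-monomer-binding twinfilin, and Rgs19, a GTPase activator of G alpha subunits, were higher in BM (187 ± 3.23 and 143 ± 3.05 FPKM, SD, n = 3) than in PB (105 ± 5.87 and 99.91 ± 5.04), with 32.1 ± 0.548 and 26.2 ± 1.18 in lung. Sap25, a Sin3A-associated protein, had 151, 166 and 92.4 FPKM in PB and 41.1, 47.5 and 45.3 in lung, with PB replicate 3 the low value, and Tsc22d4, a leucine zipper protein, had 128, 121 and 139.5 in PB and 41.3, 39.8 and 40.5 in lung.

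The lowest lung ratios belonged to AI467606, Tnfaip8l2, Hhex, Nfic, Cep19 and Rbm43. AI467606, a gene known only by a sequence name, was at 232, 221 and 238 FPKM in PB, 118, 118 and 118 in BM and 9.09, 9.29 and 9.06 in lung. Tnfaip8l2, which encodes the TIPE2 inhibitor of innate immune signalling, was at 118, 109 and 139.9 FPKM in PB, 82.1, 85.2 and 95.2 in BM and 7.70, 7.79 and 9.10 in lung. The replicates of each gene lay close together against these gaps. Cep19, a centrosomal protein, fell from means of 40.4 ± 1.64 and 64.1 ± 1.76 FPKM in PB and BM to 4.34 ± 1.16 in lung (SD, n = 3). The nuclear factor Nfic had means of 18.8 ± 0.645, 22.4 ± 0.559 and 1.40 ± 0.171 FPKM in PB, BM and lung, and Rbm43, an RNA-binding protein, 18.5 ± 0.847, 16.5 ± 0.261 and 1.35 ± 0.0992.

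**Figure D1:**
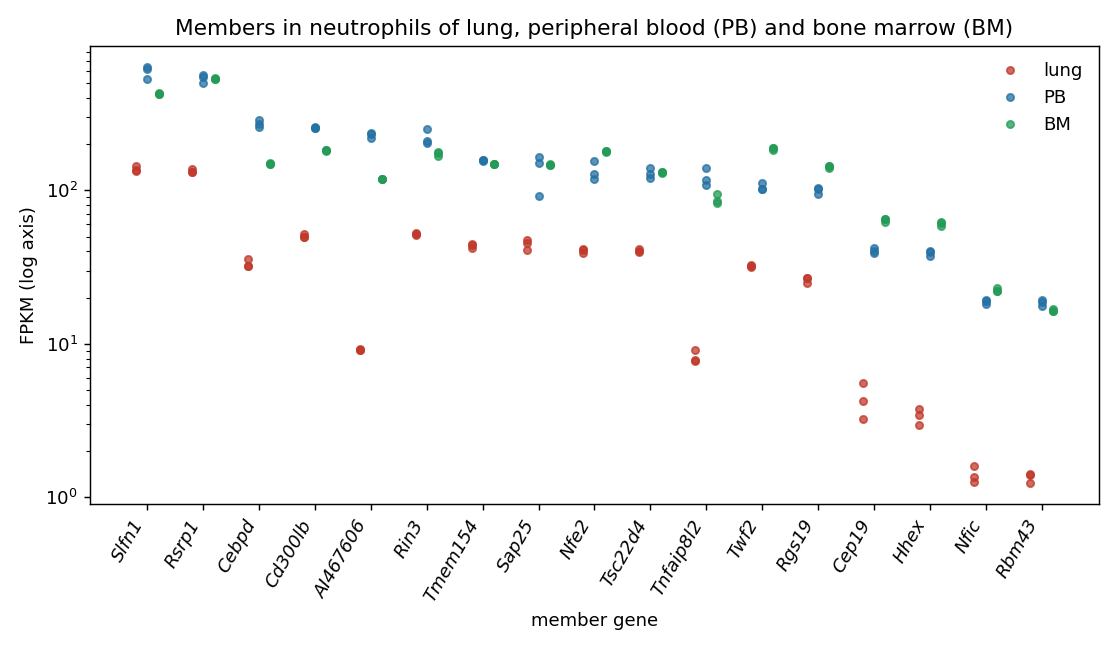
FPKM (log axis) of the 17 members with the highest PB and BM levels or the lowest lung ratio, with 1 point for each of 3 libraries of lung, PB and BM. The lung points lie below all PB and BM points for each gene, as the choice requires of the means.

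At the edge of the rule, ratios just inside the lung threshold belonged to Bak1 (0.332), Smarcc2 (0.333) and Hif1an (0.333), and just outside to Sirt7 (0.334), B430306N03Rik (0.335) and Tbrg4 (0.336). The PB and BM libraries overlapped for 54 members. For 73 members every BM library was above every PB library, and for 36 every PB library was above every BM library. No share of eligible genes stands beside these counts, which describe the members alone. Ltbr, the lymphotoxin beta receptor, was 76.0 ± 2.34 FPKM in PB and 38.7 ± 0.589 in BM, and Usf1, an E-box-binding factor, 59.6 ± 0.836 and 30.8 ± 1.05 (SD, n = 3). The reverse held for Sh2b1, an adaptor of receptor signalling, with 13.5 ± 2.78 in PB and 27.4 ± 0.902 in BM, and for the cell cycle factor E2f2, with 39.3 ± 0.358 and 69.8 ± 1.07.

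Members carried fewer exons than other genes at these PB and BM levels, which the rule did not use. The longest coding transcript in GENCODE M21 had a median of 6 exons among members and 10 among eligible genes, at median transcript lengths of 2956 and 2960 bases. Genes of 1 exon made up 13 members (7.98%) against 1.41% of eligible genes. Of 52 eligible genes with 1 exon 25% were members, of 286 with 2 to 3 exons 11.2%, of 1450 with 4 to 9 exons 5.59%, and of 1905 with 10 or more 1.94%, so that the share fell with each class. The single-exon members included Cebpa, Cebpd, Mgat2, Thap11, Foxd4, Klhl9, Fbxl14 and Irf2bp1. Median GC content was 54.1% in members and 50.6% in eligible genes. In libraries that the rule did not use, eligible genes that are no members had a median log2 change of WT lung against WT PB of -0.68 with 1 exon, -0.82 with 2 to 3, -0.62 with 4 to 9 and -0.55 with 10 or more.

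**Figure D2:**
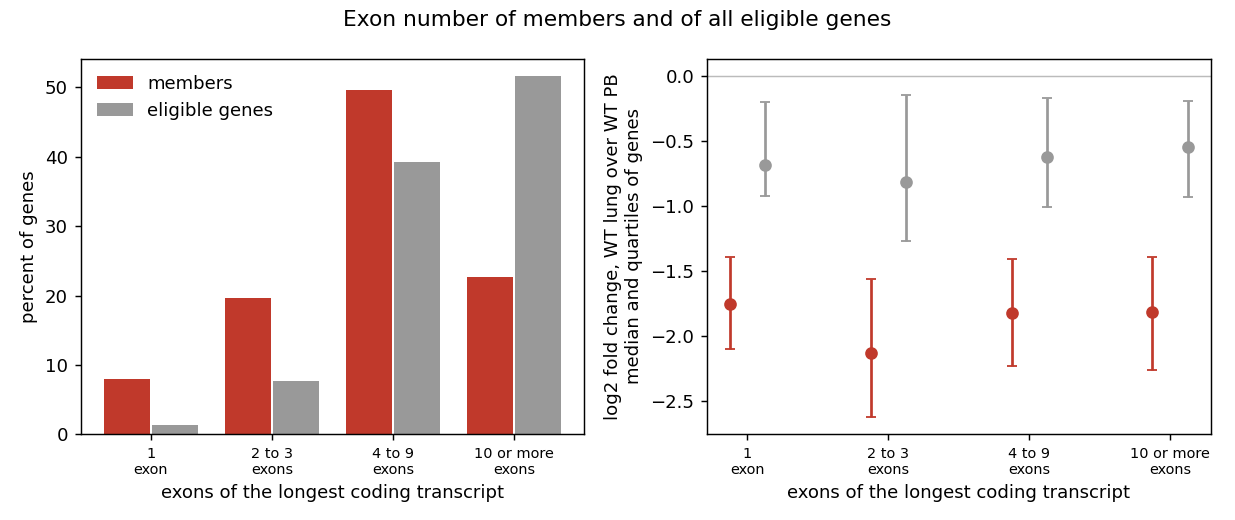
Left, percent of members and of eligible genes in each class of exon number. Right, median log2 fold change of WT lung over WT PB in the Piezo1 experiment, with quartiles of genes as bars, for members (red) and eligible genes that are no members (grey). Members are shifted to classes of few exons, and their median change lies between -2.13 and -1.76 in every class.

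By the words of their annotation the members fell into many small groups, in which the names show what is annotated and not what changed. The deposited annotation gives a transcription factor family to 27 members (16.6%) and 6.09% of eligible genes, and 14 members (8.59%) have the symbol Zfp or Zbtb against 1.59%. All of these 14 are among the 27, so the counts are nested. Both counts were looked at after the members were seen and were not tested. The group planned beforehand, transcription factor words in the annotation, held 4 members (2.45%) against 1.40% of eligible genes. Apoptosis words covered 14.1% of members and 13.9% of eligible genes, cell cycle words 13.5% and 10.9%, mitochondrion 12.3% and 12.8%, vesicle traffic 12.3% and 18.3%, cytoskeleton 8.59% and 16.4%, and RNA processing 3.07% and 7.36%. No member was annotated as a G-protein coupled receptor or a circadian gene, of 61 and 45 eligible genes.

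In the Piezo1 experiment, the members fell in lung in libraries that had no part in their choice. Both WT lung libraries lay below both WT PB libraries for 163 of 163 members, where the same was so for 79.4% of eligible genes. The median log2 difference of lung to PB on the log2(FPKM + 1) scale was -1.80 over all 163 members and -0.61 over 3708 eligible genes, with no filter on low values. In the fit of genes with at least 1 FPKM in at least 2 of the 4 libraries, 153 members were tested and 140 were called lower in lung, by limma adjusted p below 0.05 and a log2 fold change below -1, where 26.5% of 7143 genes were called lower. None was called higher by limma, edgeR or DESeq2, against 7.50% of all genes by limma, and all 153 were lower by adjusted p alone, where 72.5% of all genes were. The 10 members under the filter were too low to test, and none of them was called when the filter was dropped. The filter could be met by the 2 PB libraries alone, where members were high, and such members could hardly be called higher in lung. With either WT PB library left out, passing needed a lung library, and 108 members were tested. Their median was -2.03 or -2.04, against -0.54 of all genes.

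The whole WT lung profile lay below PB by a median of -0.62 on this scale, and members had a median of -1.88, or -1.27 relative to it. After scaling every library to the median ratio over genes, 103 members were called lower against 8.85% of all genes, with 13.2% of all genes called higher, and 153 of 153 members were below 0. AI467606 was at 19.2 and 19.0 FPKM in WT lung and 496 and 496 in WT PB, a log2 fold change of -4.63 ± 0.0299 (SE, limma adjusted p = 9.2e-11). Bet1l, a SNARE of Golgi transport, was at 3.07 and 3.26 FPKM against 53.0 and 55.4, a change of -3.73 ± 0.061 (SE, limma adjusted p = 5.4e-09). Tnfaip8l2 was at 12.7 and 15.6 against 179 and 198, a log2 fold change of -3.65, and Rsrp1 at 92.5 and 92.1 against 1005 and 982, a change of -3.41. The lung and PB libraries did not overlap for any of these genes.

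**Figure D3:**
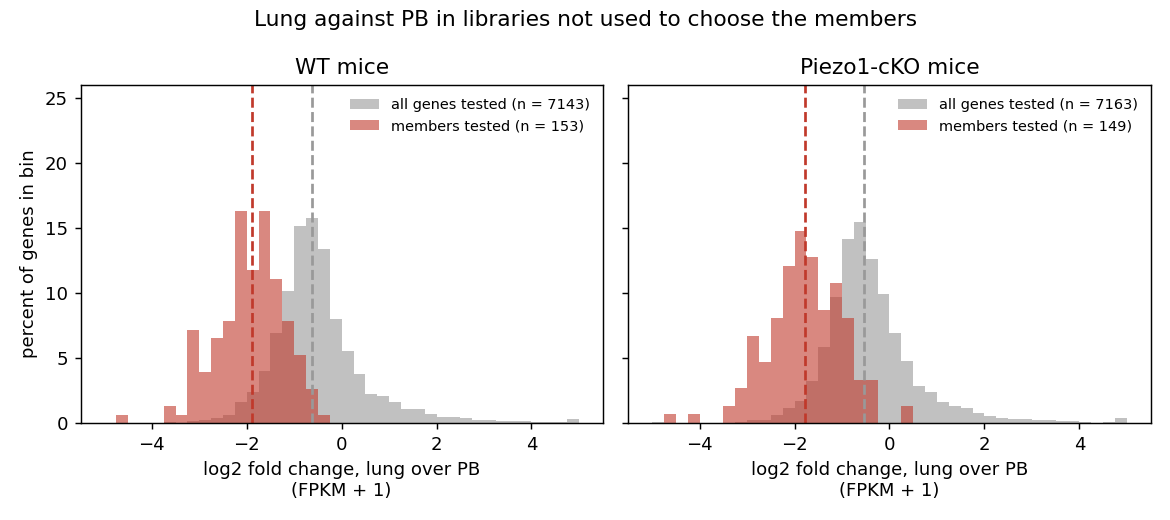
Distribution of log2 fold changes of lung over PB on FPKM + 1 for all genes tested (grey) and members tested (red) in WT and Piezo1-cKO mice, with dashed lines at the medians. In both genotypes the members lie left of the other genes, with medians of -1.88 against -0.62 in WT and -1.79 against -0.54 in cKO.

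Most members that did not pass both thresholds in WT were low in both tissues in this experiment. Of 13 tested members that missed the call, 12 had a WT PB mean under 4 FPKM and the other, the Rab GTPase activator Tbc1d10b, had 8.56 and 8.59 FPKM in lung and 15.7 and 16.7 in PB, a log2 fold change of -0.84. The pro-apoptotic Bcl-2 family gene Bak1 was at 0.537 and 0.365 in lung and 1.14 and 1.36 in PB, and Smarcc2, a SWI/SNF subunit, at 0.803 and 0.807 in lung and 2.36 and 2.54 in PB. The pseudocount of 1 compresses fold changes at such levels.

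In each role group with members, most of those tested were called lower in WT lung, and a member can stand in several groups. Over all members tested 91.5% were called lower, and over all genes 26.5%. The counts per group here and below are to be read beside these shares and show no trait of a group. Of tested members annotated to apoptosis, 20 of 21 were called lower, and of those annotated to cell cycle 17 of 19. The caspases Casp9 (11.5 and 10.3 in WT PB against 3.43 and 3.29 in lung) and Casp2 (4.77 and 3.92 against 1.06 and 0.851) were among those called in apoptosis, and Bak1, at 27.6, 26.4 and 30.8 FPKM in PB of the first experiment, was not called. All 14 annotated to the cytoskeleton were called lower, among them Twf2, the 14-3-3 protein Ywhah (154 and 158 FPKM in PB and 29.3 and 28.8 in lung) and the lipogenesis regulator Mid1ip1 (85.6 and 87.1 in PB against 25.7 and 21.5 in lung). Vesicle traffic had 18 of 19, mitochondrion 17 of 18, ubiquitin 13 of 15 and chromatin 11 of 12 called lower.

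Further members of these groups were named for their PB level. Tmem50b, a transmembrane protein placed in vesicle traffic, was at 149 and 148 FPKM in WT PB and 35.7 and 38.3 in WT lung, and Mtus1, a microtubule-associated tumour suppressor, at 52.4 and 52.6 in PB against 10.1 and 9.63 in lung. Ppp2cb, a catalytic subunit of the phosphatase PP2A, was at 17.8 and 18.6 in PB against 3.06 and 3.16 in lung, and Fbxl14, an F-box protein of ubiquitin ligases, at 7.95 and 7.42 in PB against 2.08 and 1.62 in lung. These genes had no overlap between lung and PB. Trp53inp1, a p53-induced protein, was at 28.8 and 29.8 in PB and 7.99 and 7.41 in lung, Phf23, a PHD finger protein, at 16.9 and 17.3 in PB against 5.53 and 7.05 in lung, and Plekhf2, an endosomal protein, at 43.8 and 42.9 in PB against 11.96 and 12.9 in lung. The DNA repair words covered 9 members with 8 of 9 called lower, led by Rad9a of the checkpoint clamp at 33.3 and 35.7 in PB and 5.18 and 5.98 in lung. Fam111a, a protease that restricts viral replication, was at 65.3 and 68.0 in PB against 21.5 and 18.9 in lung, Arid3a, a DNA-binding factor, at 5.71 and 6.25 in PB against 2.37 and 1.85 in lung, and Sipa1, a GTPase activator of Rap proteins, at 54.5 and 49.1 in PB against 15.7 and 15.8 in lung.

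Immune regulators had 10 of 11 called lower, near the 91.5% of all members tested. Sash3, an adaptor of lymphocytes, was at 166 and 153 FPKM in WT PB and 17.4 and 17.8 in WT lung, and Ltbr at 41.4 and 41.0 in PB against 7.61 and 6.93 in lung. Of 25 tested members with a deposited transcription factor family 23 were called lower, also near that share. Sp3, a GC-box-binding factor, was at 28.4 and 28.0 in PB and 5.70 and 4.64 in lung, Lyl1, a basic helix-loop-helix factor of blood cells, at 20.1 and 18.6 in PB against 5.02 and 5.37 in lung, and Foxd4, a forkhead factor, at 56.1 and 59.3 in PB against 23.2 and 26.4 in lung.

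Other named groups had few members. Of the tested members, 5 of 5 with RNA processing words were called lower, including the RNA-binding repressor Spen (2.10 and 2.06 FPKM in WT PB, 0.506 and 0.436 in WT lung), Tsen34 of the tRNA splicing endonuclease (14.3 and 15.9 in PB against 3.89 and 3.42 in lung) and the splicing factor Pnn (2.78 and 3.05 in PB against 0.232 and 0.115 in lung). Tsen34 lies over part of the neighbouring gene Mboat7 in RefSeq, as 51 members do with another gene, and without a stated strand setting their reads cannot be told apart. Of 4 with translation words 3 were called lower, with Cnot8, a deadenylase subunit of CCR4-NOT, at 30.7 and 28.8 in PB against 8.19 and 7.48 in lung, and Nck1, an SH2 and SH3 adaptor, at 21.6 and 20.1 in PB against 7.12 and 7.60 in lung. Of 4 with kinase words 3 were tested and 3 called lower, including the kinase Aatk (9.83 and 9.69 in PB against 1.89 and 1.75 in lung), while the phosphatase group had 2 of 3.

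Levels in PB also differed between the experiments, which share no libraries. The median member had a WT PB mean of 0.750 times its PB mean in the tissue comparison, with 104 members lower and 59 higher. The span was wide, from 0.0116 to 3.02 times. Zbtb7b, a zinc finger factor of T cell lineage choice, was at 63.5, 65.8 and 58.0 FPKM in PB of the tissue comparison and 3.75 and 3.59 in WT PB, and Rab35, a GTPase of endocytic recycling, at 52.8, 56.9 and 61.6 in the first and 3.27 and 3.43 in WT PB. Foxd4 went the other way, from 19.1, 20.8 and 17.7 to 56.1 and 59.3. In all, 49 members had a WT PB mean under 5 FPKM, the minimum of the rule.

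Piezo1-cKO neutrophils showed the same kind of fall. Both cKO lung libraries lay below both cKO PB libraries for 158 of 163 members and above them for Rab35, Taok2 and Prcc, where 72.5% of eligible genes lay below. In the fit, 149 members were tested and 125 were called lower in lung, where 23.0% of 7163 genes were called lower, and none was called higher by limma, against 7.93%, while 2 were higher by adjusted p alone, against 18.6% of all genes, and 2 by edgeR, against 16.9%. All 149 had an unadjusted p below 0.05, as did 85.2% of all genes. The median was -1.79 for members and -0.54 for all genes tested, and after scaling to the median ratio 97 members were called lower against 7.68% of all genes. With either cKO PB library left out, passing the filter needed a lung library, and 120 members were tested. Their median was -1.84 or -1.88, against -0.46 or -0.47 of all genes. The cKO libraries share none with the WT comparison. Of 145 members tested in both, 124 were called lower in both genotypes, 15 in WT alone, 1 in cKO alone and 5 in neither. The fall was larger in WT for 99 of these members and larger in cKO for 46.

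AI467606 was at 20.5 and 21.7 FPKM in cKO lung and 555 and 579.6 in cKO PB, a log2 fold change of -4.68 ± 0.0495 (SE, limma adjusted p = 1.3e-08). Tnfaip8l2 was at 11.8 and 12.1 against 226 and 211, a change of -4.08, Cep19 at 7.51 and 7.05 against 86.1 and 85.1, a change of -3.39, and Hhex at 5.60 and 4.35 against 59.9 and 57.2, a change of -3.32. The lung and PB libraries of these genes did not overlap. Slfn1 and Cebpd fell by like amounts in both genotypes, from 627 and 632 to 102 and 106 and from 269.5 and 323 to 35.1 and 37.4 FPKM in cKO, and the log2 differences between genotypes were 0.02 ± 0.0462 and 0.05 ± 0.111 (SE).

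**Figure D4:**
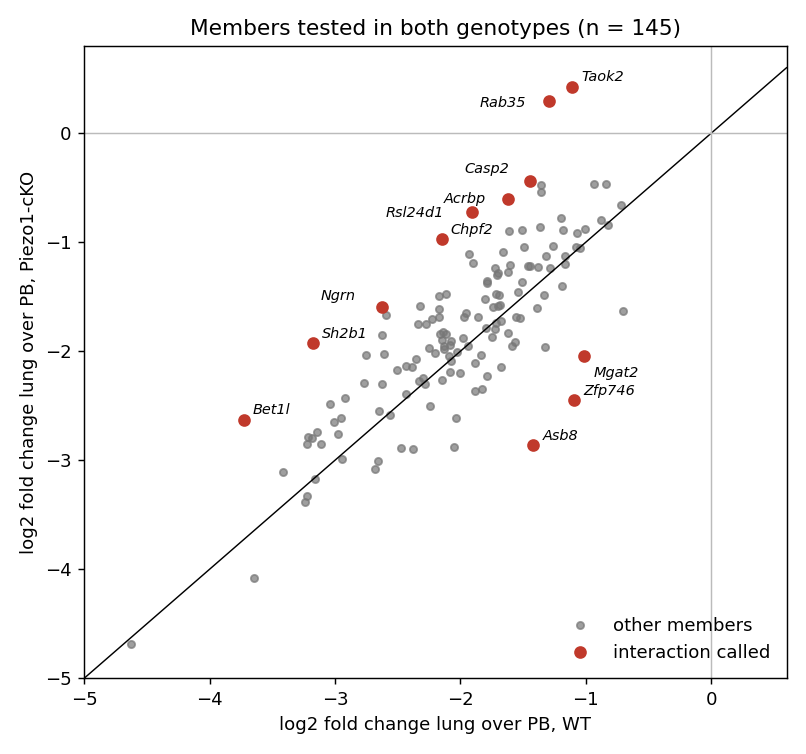
Log2 fold change of lung over PB in WT (x axis) and Piezo1-cKO (y axis) for 145 members tested in both, with the line of equal change. Red points are members whose difference between genotypes passed both thresholds, and Taok2 and Rab35 are the points above 0 in cKO.

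The difference between genotypes was tested as an interaction of genotype and tissue. Of 157 members tested, 9 had a larger fall in WT and 3 a larger fall in cKO by adjusted p below 0.05 and a difference over 1, where 4.29% and 2.57% of 7560 genes did, so that members were near the background in both directions. By adjusted p alone 60 members had a larger fall in WT, 38.2% of those tested, against 29.7% of all genes, and 21 a larger fall in cKO, 13.4% against 18.5%. After scaling to the median ratio these were 29.9% against 23.5% and 18.5% against 24.7%. The interaction median was -0.21 over members and -0.08 over all genes.

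Taok2 and Rab35 were the members tested in cKO that did not fall there. Rab35 was at 3.27 and 3.43 FPKM in WT PB, 0.865 and 0.680 in WT lung, 1.11 and 1.00 in cKO PB and 1.42 and 1.62 in cKO lung, and the genotypes differed in their change by -1.59 ± 0.132 on the log2 scale (SE, limma adjusted p = 8.7e-05). Taok2, a MAP3K of the stress kinase pathways, was at 3.16 and 2.39 in WT PB, 0.790 and 0.696 in WT lung, 0.483 and 0.841 in cKO PB and 1.21 and 1.23 in cKO lung, a difference of -1.54. For both genes cKO lung was above cKO PB, and neither reached 5 FPKM in any library of this experiment.

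Among members with at least 5 FPKM in 1 group, Bet1l was at 6.21 and 6.51 in cKO lung and 3.07 and 3.26 in WT lung, with PB at 41.9 and 47.3 in cKO and 53.0 and 55.4 in WT. Sh2b1 was at 11.2 and 10.4 FPKM in WT PB and 5.84 and 5.53 in cKO PB, with 0.466 and 0.159 in WT lung against 0.839 and 0.684 in cKO lung. Chpf2, an enzyme of chondroitin synthesis, was at 0.428 and 0.304 in WT lung and 1.35 and 1.57 in cKO lung, and Ngrn, a mitochondrial protein, at 1.02 and 0.957 in WT lung against 2.67 and 1.86 in cKO lung. In these 4 genes the WT lung libraries were all below the cKO lung libraries.

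Asb8, Zfp746 and Mgat2 fell further in cKO. Asb8, a SOCS box protein, was at 14.7 and 13.2 FPKM in WT PB, 4.85 and 4.33 in WT lung, 21.6 and 20.7 in cKO PB and 1.63 and 2.53 in cKO lung. Zfp746, a zinc finger repressor, was at 2.34 and 2.23 in WT PB and 7.21 and 7.41 in cKO PB, with 0.457 and 0.627 in WT lung against 0.551 and 0.496 in cKO lung, and Mgat2, an enzyme of N-glycan branching, at 9.22 and 10.3 in WT PB against 20.02 and 18.4 in cKO PB with 4.21 and 4.42 in WT lung against 3.56 and 4.26 in cKO lung. For Zfp746 and Mgat2 the lung libraries overlapped between genotypes and the PB libraries did not, in PB samples where erythroid genes also differed.

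**Figure D5:**
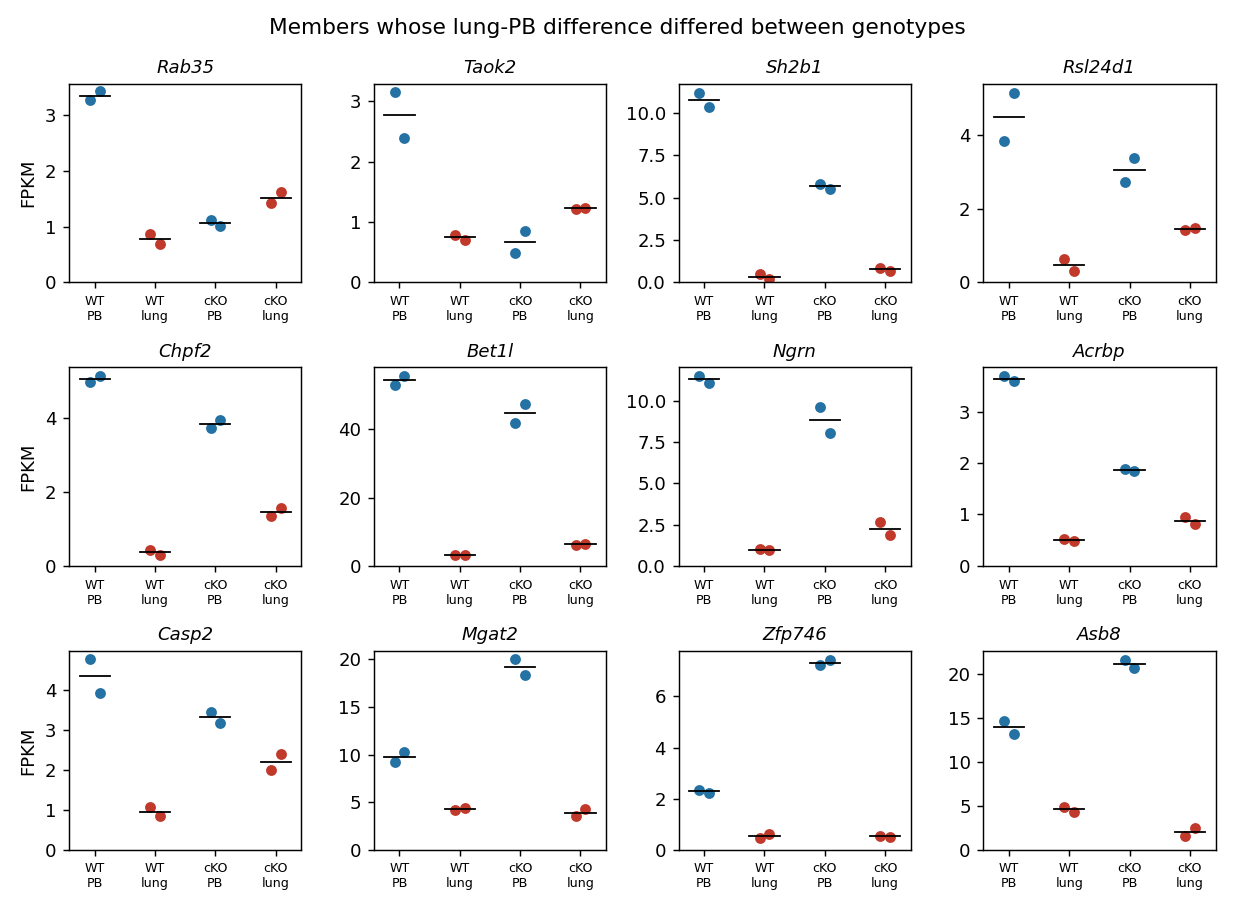
FPKM of the 12 members whose lung-PB difference passed both thresholds between genotypes, with 1 point per library (PB blue, lung red) and a line at the mean of 2. In the first 2 panels cKO lung lies above cKO PB, and in the last 3 cKO PB lies above WT PB.

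Between the genotypes within lung, no member of 123 tested was called, where 0.793% of 6434 genes were called lower and 0.202% higher in WT. The other 40 members were too low in lung to test. The median member had 2.10 FPKM in WT lung and 2.81 in cKO lung, levels at which the pseudocount of 1 compresses fold changes. With a pseudocount of 0.1, 13 members were called lower and 3 higher in WT, against 249 and 83 of 6434 genes. By limma, 87 members (70.7%) had an unadjusted p below 0.05, as did 57.4% of all genes. On recovered reads edgeR called 13 members lower and 3 higher, against 3.40% and 1.96% of all genes, and DESeq2 called 12 and 3, against 3.09% and 1.74%. By adjusted p alone 71 members were lower in WT lung than in cKO lung, 57.7% of those tested against 35.0% of all genes, and 8 were higher, 6.50% against 15.8%. After scaling to the median ratio these were 56 members, against 23.8% of all genes, and 12, against 24.8%. Over all 163 members, both WT lung libraries lay below both cKO lung libraries for 109 and above them for 19, where 55.0% and 22.4% of eligible genes did. The median over all 163 members without a filter was -0.24, and over eligible genes -0.11. Hsdl1, which lies on the chromosome of Piezo1, had the widest difference, with a log2 fold change of -0.99 at means of 5.28 FPKM in WT lung and 11.5 in cKO lung, and it is named here because it was seen to lead. Rsrp1 was at 92.5 and 92.1 FPKM in WT lung and 119 and 119.7 in cKO lung, and Ywhah at 29.3 and 28.8 in WT lung against 44.4 and 44.6 in cKO lung. WT lung was the lower for both.

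Within PB, few members were called between genotypes. Of 157 tested, 3 were higher and 1 lower in WT PB, where 1.97% and 1.68% of 7256 genes were. The 3 were Rab35, Taok2 and Tstd1, a thiosulfate sulfurtransferase, and the 1 was Zfp746, with a log2 fold change of -1.34 ± 0.0867 (SE, limma adjusted p = 0.00027). By adjusted p alone 32 were higher in WT and 48 lower, against 23.2% and 26.5% of all genes. The comparisons between genotypes use the same libraries as those between tissues.

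Whole lungs hold all cell types of the organ, and no member passed the test between depleted and control lungs. All 163 were matched to the whole-lung table and 156 were tested. None was called by limma at an adjusted p below 0.05 and a log2 fold change over 0.5, where 0.00715% of 13990 genes were lower, and 27 (17.3%) had an unadjusted p below 0.05, as did 11.2% of all genes. No count test was run, as reads were not recovered there. The members' median was -0.05 and that of all genes -0.04. The listed neutrophil genes summed to 240.9 to 293 FPKM in controls and 83.8 to 166 in depleted lungs. Cd300lb had the lowest p, with 6.10, 4.30 and 4.17 FPKM in controls and 2.26, 2.15 and 1.19 in depleted lungs, and Slfn1 had 10.8, 6.96 and 6.85 against 7.83, 4.60 and 2.77. Hhex was at 5.02, 5.43 and 4.12 in controls and 3.27, 3.65 and 2.74 after depletion, and AI467606 at 19.5, 20.5 and 19.4 in controls against 19.3, 16.8 and 16.4 after depletion. The groups did not overlap for Cd300lb, Hhex and AI467606, and overlapped for Slfn1. These genes are examples of the 156 tested, and the share of members or of all genes without overlap was not counted. Their values are therefore no result about the members.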

How the data were processed

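Per the labels, the authors made the values with fastp, HISAT2 and HTSeq on mm10, and deposited FPKM per gene and library. Tool versions are not given in the sources used here. For the 17 libraries of sorted cells whole reads were worked back from the FPKM steps. With a tolerance of 0.02 reads 100.0% of values were whole, but the recovery itself looks for whole reads. The reads were also compared with a signal that the authors deposited per group in the Piezo1 tables, a mean of normalized read counts. Neither step is taken as an independent check of the reads used by edgeR and DESeq2. Fold changes and p values in the deposited tables were not used. Members and lists were chosen with earlier results of these data known.

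Log2(FPKM + 1) values were tested by limma 3.58.1 under R 4.3.3, with a robust eBayes trend, on the libraries of each comparison, with genes at 1 FPKM in at least 2 libraries (3 for whole lung) and Benjamini-Hochberg adjustment over all genes tested. A call needed adjusted p below 0.05 and a log2 fold change beyond 1 in size (0.5 for whole lung). With 2 libraries per group, the error leans on variance shared across genes. edgeR 4.0.16 and DESeq2 1.42.0 on recovered reads were alternatives, beside another pseudocount, no filter, scaling to the median ratio, a replicate block, and leaving out libraries. The chi-square per gene between reads of replicates, which is near 1 under counting error alone, was 1.90 to 4.77 for all pairs but those with PB replicate 3 of the first experiment, at 24.6 and 40.9. Sequences and gene positions come from RefSeq on GRCm38.p6, and mm10 is the same assembly. Named genes were the 12 highest members by PB and BM level, the 6 with the lowest lung ratio, up to 4 called in each direction of each comparison that did not overlap and reached 5 FPKM, and 3 by PB level per role group, besides those at the edge of the rule. Cebpa, E2f2, Casp9, Casp2, Zbtb7b, Hsdl1, Tstd1, Prcc, Acrbp and other members outside this rule were named after their values were seen. Role groups were matched by words in the deposited annotation, exons were counted in GENCODE M21, and Python 3.11.15 was used for the rest.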

Additional observations from a re-analysis of the deposited data

Results flagged for a closer look

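A lung to PB change that differed between genotypes, in the test of the difference itself, was found for 12 of 157 members tested. The fall was larger in WT for 9 (5.73%) and in cKO for 3 (1.91%), against 4.29% and 2.57% of 7560 genes. Members were thus near the share of all genes, and the list is no trait of the module. A negative value is a larger fall in WT, and the values are WT minus cKO on the log2 scale. The difference was -1.59 for Rab35, -1.54 for Taok2, -1.25 for Sh2b1, -1.19 for Rsl24d1, a ribosome biogenesis factor, and -1.17 for Chpf2. It was -1.10 for Bet1l, -1.03 for Ngrn, -1.01 for Acrbp, the acrosin-binding protein, and -1.01 for the caspase Casp2. The other direction was taken by Mgat2 at 1.03, Zfp746 at 1.35 and Asb8 at 1.44. Erythroid genes were higher in the cKO PB libraries, and their part in these differences was not tested. Casp2 was at 1.06 and 0.851 FPKM in WT lung and 2.00 and 2.39 in cKO lung, Acrbp at 3.70 and 3.59 in WT PB and 1.88 and 1.84 in cKO PB, and Rsl24d1 at 0.618 and 0.306 in WT lung and 1.43 and 1.47 in cKO lung.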

How the results depend on the processing

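Scaling libraries to the median ratio gave 35 genes, of which 33 were among the 163 members. A pseudocount of 0.1 gave 247, of which 161 were. A lung level of at most 1/4 in place of 1/3 left 58 members, and the lung part asked of every library left 101. Leaving out 1 library gave 154 to 167. Members called lower in lung ranged from 105 to 141 in WT and from 106 to 127 in cKO when 1 library was left out, and a left-out PB library drops members below the filter. Between genotypes in lung, adjusted p alone gave 79 members, pseudocount 0.1 gave 16, edgeR 16 and DESeq2 15, and leaving out 1 library gave 0 to 2. In PB the counts were 80, 8, 10 and 9, and 3 to 5. By edgeR 2.55% of members were lower and 3.82% higher in WT PB, against 4.58% and 5.55% of all genes. DESeq2 gave 2.55% and 3.18%, against 4.37% and 5.13%. With pseudocount 0.1, 4 members were lower and 4 higher, against 316 and 356 of 7256 genes. For the interaction the counts were 81, 27, 27 and 23, and 9 to 13. By edgeR 13.4% of members had a larger fall in WT and 3.82% in cKO, against 10.3% and 6.49% of all genes. DESeq2 gave 10.8% and 3.82%, against 9.03% and 6.07%. With pseudocount 0.1 these were 22 and 5 members, against 791 and 420 of 7560 genes. The cause of these moves was not tested. Deviations of libraries with the same replicate number were hardly correlated (-0.027 to 0.079). In sorted cells much of this spread was near counting error, so the correlations cannot tell whether the samples were paired. The replicate block gave 140, 125, 0, 4, 12 and 0 members in WT, cKO, lung, PB, interaction and whole lung, the counts without it. Of 16 named values under their alternatives, 192 of 197 kept direction and threshold and 5, for Ngrn and Mgat2, missed the threshold of 1 when a library was left out, and none reversed. Whole-lung counts stayed at 0 under every alternative run. Depth limits the members with few reads, and 10 members in WT and 14 in cKO were too low to test between lung and PB. Between genotypes in lung, 40 were too low to test.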

Other observations

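Members were spread over the genome, with 24 on chromosome 7, of 285 eligible genes there, and 14 on chromosome 4, of 231. Of 12 members on chromosome 8, which holds Piezo1, the nearest were 6430548M08Rik at 2367546 bases from it, Zdhhc7 at 2400607, Sprtn at 2416073 and Hsdl1 at 2919720. The 3' untranslated region of the longest coding transcript held TATTTAT, an AU-rich element linked to mRNA turnover, in 24.2% of 161 members and 27.4% of 3645 eligible genes, at median lengths of 1054 and 978 bases. These shares are descriptions with no test.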
